A study of Mus musculus with 9 samples.

Results

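The 10 genes described here are the interleukin-6 (IL-6) family of cytokines with their receptors and signalling partners, as expressed in the mouse heart after myocardial infarction. They were chosen by symbol from the 25468 genes measured, and each of the 10 symbols matched 1 gene identifier. Il6, Il11, Lif, Osm and Clcf1 encode cytokines, Il6ra, Osmr and Il6st encode receptor chains, Stat3 encodes the transcription factor that carries the signal, and Socs3 encodes its feedback inhibitor.

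Cytokines of this family bind a receptor complex that contains gp130, the product of Il6st. The bound receptor activates JAK kinases, which phosphorylate STAT3, and phosphorylated STAT3 enters the nucleus and activates transcription. One of its targets is Socs3, whose protein binds gp130 and JAK and shuts the signal down. In the heart, gp130 signalling is known for acting on cardiomyocyte survival and growth, and oncostatin M receptor is made by cardiomyocytes and fibroblasts. STAT3 is mainly switched by phosphorylation, which RNA sequencing does not measure.

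Bulk RNA sequencing had been done on 9 libraries of heart tissue from wild-type (WT) mice, 3 in each of 3 groups. The groups were acute myocardial infarction (AMI) sampled at day 1, AMI sampled at day 7, and sham operation. The labels give neither the day on which sham hearts were taken nor the strain, age or region of the heart, and the same 3 sham libraries were set against both infarct groups. Nothing in the labels ties each library to its own animal, and the spread behind the p-values may be technical. The series text also describes Hdc-/- hearts, which were not analysed here. Levels are FPKM, fragment counts scaled by the length of the transcript and the size of the library, summed here over each gene's transcripts. Differences were tested as log2(FPKM + 1) with limma over 13514 genes whose mean level was 1 FPKM or more, and a gene was called at a Benjamini-Hochberg adjusted p under 0.05.

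Cardiomyocyte markers were high in every library, with sums over 8 genes of 16910 to 21260 FPKM at day 1, 13790 to 23620 FPKM at day 7 and 32410 to 35410 FPKM in sham hearts. Libraries also differed in markers of neighbouring tissues. Markers of airway epithelium summed to 1631 FPKM in day 1 replicate 2 and 237 FPKM in sham replicate 1, against 28.2 FPKM or less in the other libraries. Fat cell markers were highest in sham replicate 1, at 544 FPKM, while T cell and skeletal muscle markers were highest in day 7 replicate 2, at 100.9 and 198 FPKM. Sums of 6 atrial markers ranged from 288 to 11150 FPKM at day 1, from 787 to 5430 FPKM at day 7 and from 237 to 2724 FPKM in sham hearts. In sham replicate 2, Nppa alone made up 1413 of the 1451 FPKM of the atrial sum. Results were also computed without the 2 airway-marked libraries, day 1 replicate 2 and sham replicate 1. No alternative was chosen by the atrial, T cell or skeletal muscle markers, so that check does not cover those differences.

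At day 1, 4 of the 6 members that passed the level filter rose and none fell: the cytokine Il6, the receptor genes Il6ra and Osmr, and the inhibitor Socs3. Over all genes tested, 13.4% were called higher at day 1 and 14.7% lower, relative to sham hearts. At day 7 none of the 6 was called in either direction against sham by limma, and 1 was higher, Il6, at an unadjusted p under 0.05, as were 21.4% of all genes. The background there was 15.7% of genes higher and 17.3% lower. Between the infarct groups, Socs3 was the 1 member called, lower at day 7 than at day 1, where 2.14% of all genes were lower and 2.71% higher. Il6 passed the filter only through the infarct groups, so its place among the tested members already depends on its rise. The members were also chosen with earlier results of these data known.

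All members but Stat3 separated the groups at day 1. In 9 of the 10 genes each day 1 library lay above each sham library, a separation seen upwards in 22.5% of all genes tested. The shares given here cover genes that passed the level filter, which 4 of the members, Il11, Lif, Osm and Clcf1, did not. At day 7, Il6 and Clcf1 lay wholly above sham and Stat3 wholly below it, against backgrounds of 25% upwards and 28.8% downwards. Set against day 1, Il6ra, Osmr, Stat3 and Socs3 lay wholly lower at day 7, as did 14.1% of all genes.

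Il6, the cytokine that names the family, was among the least abundant members in sham hearts and the most abundant cytokine after infarction. It was at 3.07, 4.50 and 16.8 FPKM at day 1, at 5.07, 2.16 and 1.22 FPKM at day 7, and at 0.290, 0.607 and 0.311 FPKM in sham hearts. No infarct library overlapped a sham library, and day 1 replicate 3 stood far above the other day 1 libraries. The level averaged 8.13 ± 7.56 FPKM at day 1 and 0.403 ± 0.177 FPKM in sham hearts (SD, n = 3 libraries each). The day 1 difference was a log2 fold change of 2.40 with a standard error (SE) of 0.54 (limma, adjusted p = 0.0141). With a pseudocount of 0.1 FPKM in place of 1 it was 3.695, since the larger pseudocount damps a gene whose sham level is under 1 FPKM. Without day 1 replicate 3 it was 1.76, with an adjusted p of 0.0159.

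At day 7 Il6 averaged 2.81 ± 2.01 FPKM, a log2 fold change of 1.32 (SE 0.54) over sham that missed the threshold (limma, adjusted p = 0.0881). The smaller pseudocount gave 2.36 with an adjusted p of 0.0281, and leaving out day 1 replicate 3, which enters only the shared spread, gave an adjusted p of 0.0225. Between day 7 and day 1 the log2 fold change was -1.08 (adjusted p = 0.27), and the libraries of the 2 groups overlapped.

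The transcripts that made up the Il6 total differed between the infarct groups. Il6-201, of 1141 bases, was at 1.34, 2.29 and 13.4 FPKM at day 1 and at 0.0172 FPKM or less in each day 7 library. Its share of the Il6 total at day 1 was 43.7%, 50.9% and 79.5%. Il6-204, of 963 bases and with a coding part of 582 bases against 633 in Il6-201, was at 1.02, 1.15 and 1.58 FPKM at day 1 and at 3.98, 1.39 and 1.07 FPKM at day 7. It held 78.4%, 64.3% and 87.8% of the total at day 7. In sham hearts the total was 0.607 FPKM or less, and Il6-201 held 99.9% of it in replicate 3 and 1.2% or less in the other sham libraries. With the most expressed transcript, Il6-201, in place of the gene sum, the log2 fold change at day 7 over sham turned to -0.125. The deposited values divide reads in fractions among transcripts that share most of their exons, so such splits are uncertain at these levels. Transcript names follow GENCODE M21.

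**Figure D1:**
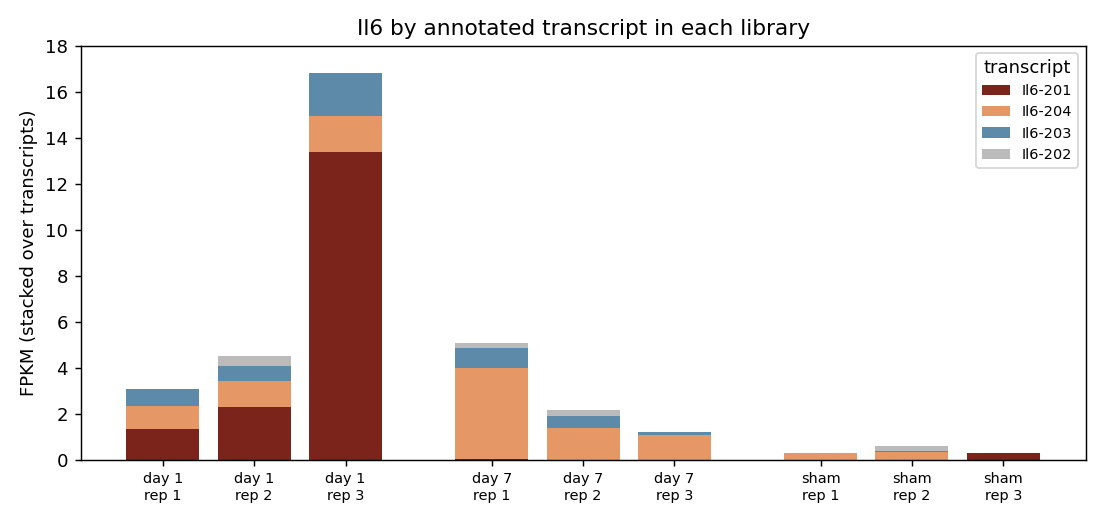
Il6 expression in each of the 9 libraries, in FPKM stacked over annotated transcripts, with day 1, day 7 and sham libraries from left to right. Day 1 replicate 3 reaches 16.8 FPKM, most of it in Il6-201, while at day 7 Il6-204 holds most of each bar and in sham libraries the bars stay at 0.607 FPKM or less.

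The other 4 cytokine genes fell below the level filter, with means under 1 FPKM over the 9 libraries, and were not tested in the analysis of 13514 genes. Clcf1 missed the filter narrowly, at a mean of 0.9998 FPKM. Without a filter, 21763 genes were tested, of which 8.51% were called higher at day 1. In that test Clcf1 was the 1 cytokine besides Il6 to rise at day 1.

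Il11, a cytokine of fibrosis and stroma, was at 0.193, 0.494 and 4.34 FPKM at day 1, at 0.286, 0.139 and 0.212 FPKM at day 7, and at 0.0824, 0.0797 and 0.146 FPKM in sham hearts. The day 1 libraries lay above sham, but day 1 replicate 3 held most of the group's mean of 1.68 ± 2.31 FPKM. Without a filter the adjusted p was 0.233 at day 1 and 0.889 at day 7 (limma). Lif, leukaemia inhibitory factor, was at 0.382, 0.662 and 0.998 FPKM at day 1, at 0.687, 0.199 and 0.316 FPKM at day 7, and at 0.159, 0.202 and 0.166 FPKM in sham hearts. Day 1 did not overlap sham, whereas day 7 replicate 2 lay within the sham range. The adjusted p of Lif at day 1 without a filter was 0.0661, and it was 0.047 when the pseudocount was also lowered to 0.1 FPKM.

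Osm, oncostatin M, a cytokine of macrophages and neutrophils, was at 0.415, 0.623 and 0.706 FPKM at day 1, at 0.464, 0.515 and 0.161 FPKM at day 7, and at 0.156, 0.177 and 0.291 FPKM in sham hearts. The day 1 libraries were above sham and 1 day 7 library was within the sham range. Without a filter Osm missed the threshold at day 1 (limma, adjusted p = 0.0563). Clcf1, cardiotrophin-like cytokine factor 1, was at 1.21, 1.23 and 1.70 FPKM at day 1, at 1.37, 0.988 and 0.812 FPKM at day 7, and at 0.591, 0.373 and 0.736 FPKM in sham hearts. Both infarct groups lay wholly above sham. Its log2 fold change at day 1 without a filter was 0.60 (SE 0.14, adjusted p = 0.0256), and at day 7 the adjusted p was 0.0864. An exon of Clcf1 overlaps an exon of AC109138.7 on the same strand in GENCODE M21, so reads of this pair may be shared.

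**Figure D2:**
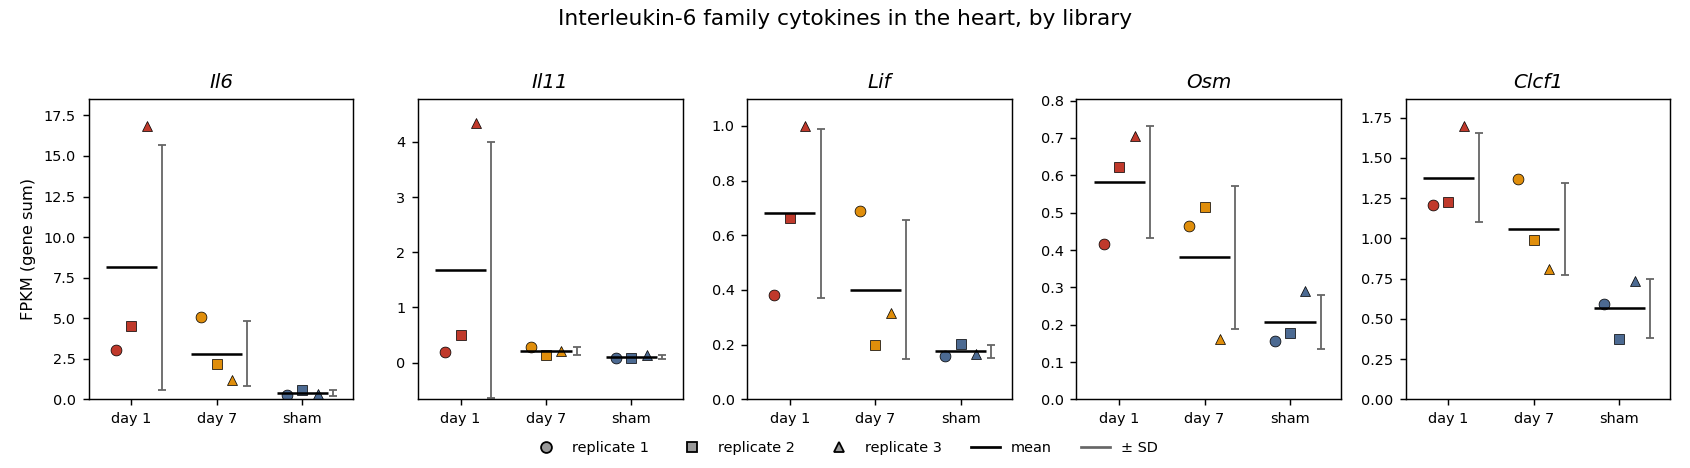
FPKM of the cytokine genes in each library, with day 1, day 7 and sham from left to right, points for libraries with a symbol per replicate, a bar for the mean and a line for the SD (n = 3). All 3 day 1 libraries of each gene lie above the sham libraries, and day 1 replicate 3 is the highest of the 9 libraries in each panel.

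Among the receptor genes, the 2 cytokine-specific chains rose at day 1 and the shared chain Il6st missed the threshold. Il6ra, the IL-6-binding chain, was at 6.20, 7.94 and 5.91 FPKM at day 1, at 4.44, 4.57 and 3.97 FPKM at day 7, and at 4.60, 2.81 and 4.67 FPKM in sham hearts. Day 1 stood above both other groups, and day 7 fell within the sham range. The means were 6.683 ± 1.097 FPKM at day 1 and 4.029 ± 1.052 FPKM in sham hearts, a log2 fold change of 0.62 (SE 0.17, limma adjusted p = 0.0244). The call was lost without sham replicate 2, at an adjusted p of 0.0567, and without day 1 replicate 2, at 0.0886. At day 7 Il6ra was 0.10 above sham on the log2 scale (adjusted p = 0.651), and -0.083 without sham replicate 2.

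Osmr, the oncostatin M-specific chain, was at 19.6, 19.9 and 26.4 FPKM at day 1, at 17.9, 12.8 and 13.8 FPKM at day 7, and at 13.01, 15.28 and 14.95 FPKM in sham hearts. Each day 1 library was above each library of the other groups, while day 7 and sham overlapped. The day 1 log2 fold change was 0.57 (SE 0.15, limma adjusted p = 0.025). It ranged from 0.433 to 0.638 when single libraries were left out. The call was lost in 5 of the 9 omissions: sham replicates 1, 2 and 3 gave adjusted p-values of 0.0787, 0.0587 and 0.0553, and day 1 replicates 2 and 3 gave 0.0519 and 0.0533. At day 7 Osmr differed from sham by 0.03 on the log2 scale (adjusted p = 0.898). That sign turned without sham replicate 1, at -0.038, and without day 7 replicate 1, at -0.105.

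Il6st, which encodes gp130, had the highest mean level of the members in each group. It was at 70.6, 67.5 and 63.1 FPKM at day 1, at 71.6, 61.2 and 62.0 FPKM at day 7, and at 56.3, 62.2 and 54.0 FPKM in sham hearts. The day 1 libraries were just above sham and the day 7 libraries overlapped it. Its log2 fold change was 0.22 (SE 0.10, limma adjusted p = 0.128) at day 1 and 0.17 (adjusted p = 0.204) at day 7. After rescaling each library to a common total (TPM), which moved the median gene by 0.24 at day 1 and 0.30 at day 7, Il6st was 0.528 above sham at day 7 (adjusted p = 0.0436). Il6st-201 held 73.0% and Il6st-203 held 21.2% of its total over the 9 libraries.

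**Figure D3:**
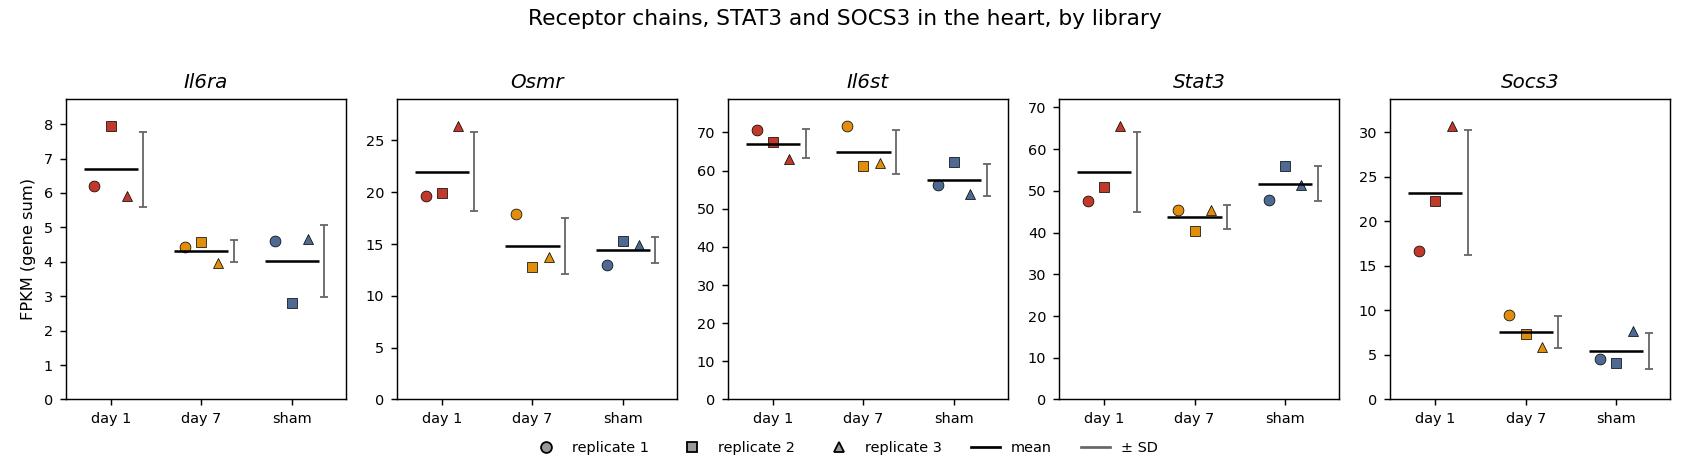
FPKM of the receptor genes, Stat3 and Socs3 in each library, with day 1, day 7 and sham from left to right, points for libraries, a bar for the mean and a line for the SD (n = 3). Socs3 is highest at day 1, at 16.7 to 30.7 FPKM, Il6ra and Osmr are modestly higher at day 1, and Il6st and Stat3 change little relative to their level.

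Stat3, the transcription factor, was already abundant in sham hearts and its RNA was called in no comparison. It was at 47.5, 50.9 and 65.5 FPKM at day 1, at 45.4, 40.5 and 45.5 FPKM at day 7, and at 47.8, 56.0 and 51.5 FPKM in sham hearts. Day 1 overlapped sham, and the day 7 libraries lay below every library of the other groups. The log2 fold change was 0.07 (SE 0.13, limma adjusted p = 0.736) at day 1, and it was -0.07 without day 1 replicate 3. At day 7 it was -0.235 (adjusted p = 0.187) on the FPKM scale and 0.118 after rescaling to TPM, where the median gene had moved by 0.30. An exon of Stat3 overlaps an exon of Stat5a on the opposite strand in GENCODE M21, and the sources used here do not state whether counting was stranded.

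Socs3, the feedback inhibitor of the pathway, rose at day 1 and was lower again at day 7. It was at 16.7, 22.3 and 30.7 FPKM at day 1, at 9.51, 7.30 and 5.86 FPKM at day 7, and at 4.53, 4.07 and 7.73 FPKM in sham hearts. Every day 1 library was above every day 7 and sham library, while day 7 and sham overlapped. The means were 23.2 ± 7.04 FPKM at day 1, 7.56 ± 1.84 FPKM at day 7 and 5.444 ± 1.996 FPKM in sham hearts (SD, n = 3 each). Socs3 rose by a log2 fold change of 1.91 (SE 0.27, limma adjusted p = 0.0035) at day 1, which is 3.76-fold on the FPKM + 1 scale. No omission of a single library lost this call, with adjusted p-values of 0.00316 to 0.0166.

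At day 7 Socs3 was 0.43 above sham on the log2 scale (SE 0.27, limma adjusted p = 0.243). It was lower at day 7 than at day 1, with a log2 fold change of -1.48 (SE 0.27, adjusted p = 0.0249). The adjusted p of that difference was 0.0776 when day 1 replicate 2 was omitted. Omitting day 7 replicate 2 gave 0.0534, and omitting day 7 replicate 3 gave 0.0778.

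The Socs3 promoter is shown because it is the member with the clearest rise and a known STAT3 target. It is the 250 bases before the RefSeq transcript start on build GRCm38.p6, chr11:117969367-117969616, minus strand, and the capitals mark TTCTTAGAA, a match to the STAT motif TTCNNNGAA.

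Socs3: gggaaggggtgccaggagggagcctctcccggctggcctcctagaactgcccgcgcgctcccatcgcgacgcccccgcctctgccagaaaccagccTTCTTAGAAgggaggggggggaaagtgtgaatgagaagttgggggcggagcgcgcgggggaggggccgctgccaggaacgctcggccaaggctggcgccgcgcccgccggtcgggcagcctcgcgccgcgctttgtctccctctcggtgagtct

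The match begins 154 bases before the transcript start. The motif reads the same on both strands, and it occurs in 7.02% of 32851 RefSeq promoter windows of the same length. Among the members, 8 had windows in that table, 9 windows in all, and the Socs3 window was the 1 with a match. Of 25 windows of genes known to respond to STAT3 or to these cytokines, 3 held it, in Fgl2, Icam1 and Reg3b. No match says only that the letters are absent from the window, and binding was not measured.

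**Figure D4:**
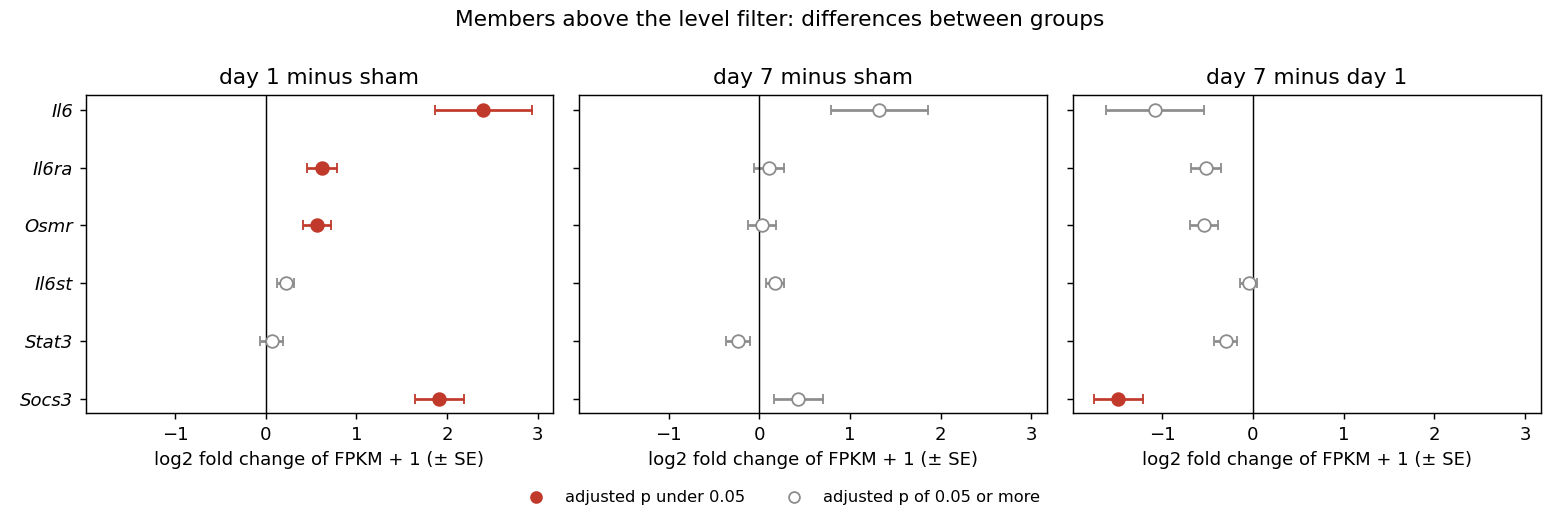
Log2 fold changes of FPKM + 1 with their SE for the 6 members above the level filter, in 3 panels for day 1 minus sham, day 7 minus sham and day 7 minus day 1. Filled points have an adjusted p under 0.05: Il6, Il6ra, Osmr and Socs3 at day 1, none at day 7, and Socs3 between day 7 and day 1.

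In bulk tissue, fewer cells of a type and less RNA per cell cannot be told apart. Markers of neutrophils and macrophages also differed between the groups. Sums of 8 neutrophil markers were 127 to 334 FPKM at day 1, 36.3 to 80.6 FPKM at day 7 and 48.1 to 66.0 FPKM in sham hearts, and the 7 that were tested were all called higher at day 1, where 13.4% of all genes were. Of these, Cxcr2 and Mmp9 passed the level filter only through the infarct groups. Sums of 8 macrophage markers were 641 to 1099 FPKM at day 1, 814 to 1055 FPKM at day 7 and 390 to 666 FPKM in sham hearts. Of these 8 markers, 5 were called higher at day 1 and 4 at day 7, where 15.7% of all genes were. Fibroblast markers summed to 1588 to 2110 FPKM at day 1, 3876 to 5403 FPKM at day 7 and 1084 to 1368 FPKM in sham hearts. The part of these cell types in the members' differences was not tested.

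Without the 2 airway-marked libraries, day 1 replicate 2 and sham replicate 1, the sizes of the day 1 differences hardly moved but no member was called by limma. The log2 fold changes were 2.55 for Il6 (adjusted p = 0.0868), 0.60 for Il6ra (0.106), 0.56 for Osmr (0.129) and 1.83 for Socs3 (0.0505), and these 4 had an unadjusted p under 0.05, as did 13% of all genes in the same direction. With 2 libraries left in each of these groups, 1.89% of all genes were called higher at day 1. Day 1 replicate 3 was the highest of the 9 libraries for 8 of the 10 members, against 14.6% of all genes tested. That share leaves out genes under the level filter, among them 4 of the members. It also counts genes that were not higher at day 1, whereas 9 of the 10 members lay wholly above sham there. Il6ra was highest in day 1 replicate 2 and Il6st in day 7 replicate 1.

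The remaining genes of the pathway changed in part. Of 7 further genes for cytokines of the family and their soluble partners, 4 were tested. Of these, 2 were higher at day 1 and 1 at day 7, where 13.4% and 15.7% of all genes were. Cntf, which encodes ciliary neurotrophic factor, was 1 of the 2 higher at day 1. Cntf averaged 2.15 FPKM at day 1 and 0.856 FPKM in sham hearts (adjusted p = 0.0363). It passed the level filter only through the infarct groups, and without the filter its adjusted p was 0.0559. The call was also lost in 6 of 9 omissions with adjusted p-values up to 0.117: each sham library, day 1 replicates 1 and 2, and day 7 replicate 3. Ctf1, cardiotrophin-1, was at 1.89 FPKM at day 1 and 2.88 FPKM in sham hearts and missed the threshold (adjusted p = 0.0686).

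Of 6 further receptor genes 4 were tested. Among these, 1 was lower at day 1, as were 14.7% of all genes, and 1 was higher at day 7, as were 15.7%. Il11ra1, the IL-11-binding chain, was lower at day 1, at 16.0 ± 2.89 FPKM against 21.3 ± 0.883 FPKM in sham hearts (log2 fold change -0.40, limma adjusted p = 0.0392). That call was lost without any 1 sham library, day 1 replicate 2 or 3, or day 7 replicate 2, with adjusted p-values up to 0.115, and after rescaling to TPM, at -0.141. Il27ra, the IL-27-binding chain, was higher at day 7, at 2.76 FPKM against 1.52 FPKM in sham hearts (log2 fold change 0.57, adjusted p = 0.0136), or at an adjusted p of 0.0545 after quantile normalisation. Lifr, the leukaemia inhibitory factor receptor, averaged 19.4 FPKM at day 1, 17.6 FPKM at day 7 and 23.0 FPKM in sham hearts and was not called.

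Of 9 genes of JAK and STAT signalling, all tested, 1 was higher and 1 lower at day 1, and 0 were higher and 2 lower at day 7. Over all genes, 13.4% were higher and 14.7% lower at day 1, and 15.7% higher and 17.3% lower at day 7. Those reported here are Jak2, higher at day 1, and Grb2, lower at day 7. Jak2, a gp130-associated kinase, averaged 14.97 FPKM at day 1 and 11.05 FPKM in sham hearts (log2 fold change 0.40, limma adjusted p = 0.0266), a call lost without any 1 sham library or day 1 replicate 2, with adjusted p-values up to 0.0823. Grb2, an adaptor to the MAP kinase pathway, averaged 44.1 FPKM at day 7 and 64.2 FPKM in sham hearts (log2 fold change -0.53, adjusted p = 0.0048), and -0.18 after rescaling to TPM, where it was not called. Jak1 averaged 47.9 FPKM at day 1, 41.1 FPKM at day 7 and 44.0 FPKM in sham hearts and was not called.

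Of 10 further inhibitors of the pathway, all tested, 2 were higher and 1 lower at day 1, and 3 were higher and 1 lower at day 7. Over all genes, 13.4% were higher and 14.7% lower at day 1, and 15.7% higher and 17.3% lower at day 7, so these counts are not far from the background. Their median log2 fold change was 0.18 at day 1 and 0.43 at day 7. Ptpn1, a tyrosine phosphatase that acts on JAK kinases, averaged 13.2 FPKM at day 1 and 6.98 FPKM in sham hearts (log2 fold change 0.83, limma adjusted p = 0.00353). Ptpn6, a phosphatase of blood cells, averaged 21.1 FPKM at day 1 and 6.96 FPKM in sham hearts (log2 fold change 1.46, adjusted p = 0.00646). Cish, a SOCS family inhibitor induced by STAT5, was lower at day 1, opposite to Socs3, and was still lower at day 7. It was at 4.35, 4.35 and 5.88 FPKM at day 1 and at 4.44, 4.38 and 7.33 FPKM at day 7. In sham hearts it was at 11.99, 12.38 and 16.09 FPKM. Its log2 fold change was -1.30 (SE 0.19, adjusted p = 0.00386) at day 1 and -1.20 (adjusted p = 0.00503) at day 7, and no omission of a single library lost either call. Without the airway-marked libraries, Cish kept its call at day 1, while Cntf, Il11ra1, Jak2, Ptpn6 and Ptpn1 missed the threshold, with adjusted p-values of 0.05 for Ptpn1 to 0.212 for Il11ra1.

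At day 7 the inhibitor called lower was Cish, and those called higher were Ptpn1, Pias3 and Socs2. Ptpn1 averaged 10.2 FPKM (log2 fold change 0.48, limma adjusted p = 0.0172), a call lost without sham replicate 1 or 2 or day 7 replicate 1, with adjusted p-values up to 0.0559. Pias3, which binds STAT3, averaged 9.98 FPKM at day 7 and 6.79 FPKM in sham hearts (log2 fold change 0.49, adjusted p = 0.0145), and was at an adjusted p of 0.0538 without sham replicate 2. Socs2 averaged 20.2 FPKM at day 7 and 13.3 FPKM in sham hearts and only just passed (adjusted p = 0.0499). Its call was lost in 7 of 9 omissions, with adjusted p-values up to 0.155: each sham library, day 1 replicates 1 and 2, and day 7 replicates 1 and 3.

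Among genes known to respond to STAT3 or to IL-6 family cytokines, 26 were listed and 24 tested. The list was chosen with earlier results of these data known, so its counts beside all genes only describe the list. At day 1, 13 were higher and 2 lower, against 13.4% and 14.7% of all genes, with a median log2 fold change of 0.79. At day 7, 5 were higher and 4 lower with a median of 0.28, near the 15.7% and 17.3% of all genes. Between day 7 and day 1 none was higher by limma, also at an unadjusted p under 0.05, and 7 were lower, against 2.14% of all genes, with a median of -0.51. The medians over all genes were -0.01, -0.02 and -0.01 in these comparisons. After rescaling to TPM the counts were 16 higher and 1 lower at day 1 and 10 higher and 1 lower at day 7, where 27.2% of all genes were called higher. In the same scale 3 members were called higher at day 7: Il6, Il6st and Clcf1. Without the airway-marked libraries none of the 24 was called at day 1 by limma, while 14 were higher and 2 lower at an unadjusted p under 0.05, against 13% and 13.9% of all genes.

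The largest rises in that list were of genes for secreted proteins. Timp1, an inhibitor of matrix metalloproteinases, averaged 187 ± 62.2 FPKM at day 1, 75.7 ± 21.7 FPKM at day 7 and 18.1 ± 17.0 FPKM in sham hearts. Its log2 fold change was 3.6 (SE 0.54, limma adjusted p = 0.00394) at day 1 and 2.32 (adjusted p = 0.0146) at day 7, the second lost without sham replicate 2, at 0.0553. Single omissions gave 3.207 to 4.287 at day 1, highest without sham replicate 3. Lcn2, an iron-siderophore binding protein also made by neutrophils, averaged 206 ± 23.1 FPKM at day 1, 20.03 ± 11 FPKM at day 7 and 24.8 ± 28.3 FPKM in sham hearts. It was 3.57 higher at day 1 than in sham on the log2 scale (SE 0.69, adjusted p = 0.00873), and 3.069 to 4.445 higher when single libraries were left out, highest without sham replicate 3. Between day 7 and day 1 its log2 fold change was -3.44 (adjusted p = 0.0322), a call lost without any 1 day 1 library or day 7 replicate 1 or 3, with adjusted p-values up to 0.0933. Serpina3n, a serine protease inhibitor, averaged 115 ± 4.92 FPKM at day 1, 59.5 ± 16.2 FPKM at day 7 and 20.5 ± 16.4 FPKM in sham hearts. It rose by 2.69 at day 1 (adjusted p = 0.00504) and 1.72 at day 7 (adjusted p = 0.0191) on the log2 scale, the second lost without sham replicate 1 or 2 or day 7 replicate 1 or 2, with adjusted p-values up to 0.0679. Sham replicate 3 was the highest sham library for all 3 genes, at 37.7 FPKM of Timp1, 57.4 FPKM of Lcn2 and 39.4 FPKM of Serpina3n.

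Saa3, an acute phase apolipoprotein, varied widely within groups. It was at 133, 256 and 54.9 FPKM at day 1, at 33.6, 317 and 77.5 FPKM at day 7, and at 8.18, 2.40 and 30.3 FPKM in sham hearts. All infarct libraries were above all sham libraries. The log2 fold change was 3.65 (limma adjusted p = 0.0271) at day 1 and 3.26 (adjusted p = 0.0359) at day 7. The day 1 call was lost without sham replicate 1 or 2 or day 1 replicate 1 or 2, with adjusted p-values up to 0.0954. The day 7 call was lost without sham replicate 1 or 2, day 1 replicate 1 or day 7 replicate 2 or 3, up to 0.118. Without the airway-marked libraries the day 7 calls of Saa3, Timp1, Serpina3n and Lbp were lost, at adjusted p-values of 0.0958, 0.0647, 0.0828 and 0.0513. Lbp, the lipopolysaccharide-binding protein, averaged 10.3 FPKM at day 7 and 3.94 FPKM in sham hearts (log2 fold change 1.17, adjusted p = 0.017), a call lost without sham replicate 2 or day 7 replicate 1 or 2, up to 0.059.

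The 2 genes of the list called lower at day 1 were also lower at day 7. Vegfa, the vascular growth factor, averaged 59.4 ± 10.7 FPKM at day 1, 49.3 ± 6.58 FPKM at day 7 and 109 ± 27.3 FPKM in sham hearts (limma adjusted p = 0.0153 at day 1 and 0.00667 at day 7), with an adjusted p of 0.0762 at day 1 without the airway-marked libraries. Bcl2l1, an inhibitor of apoptosis, averaged 30.0 ± 1.82 FPKM at day 1, 25.0 ± 3.09 FPKM at day 7 and 38.2 ± 1.51 FPKM in sham hearts (adjusted p = 0.0373 at day 1 and 0.00595 at day 7). Its day 1 call was lost without any 1 sham library, any 1 day 1 library or day 7 replicate 2, with adjusted p-values of 0.0537 to 0.109. It was also lost after rescaling to TPM (-0.069) or without mitochondrial genes (-0.123), with quantile normalisation (-0.231) and without the airway-marked libraries (adjusted p = 0.167), and its sign turned with the most expressed transcript (0.106). The day 7 call was lost with TPM (adjusted p = 0.107). Vegfa and Bcl2l1 were chosen for naming after their values were seen. At day 7 the list's other lower genes were Cebpb and Fgl2.

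**Figure D5:**
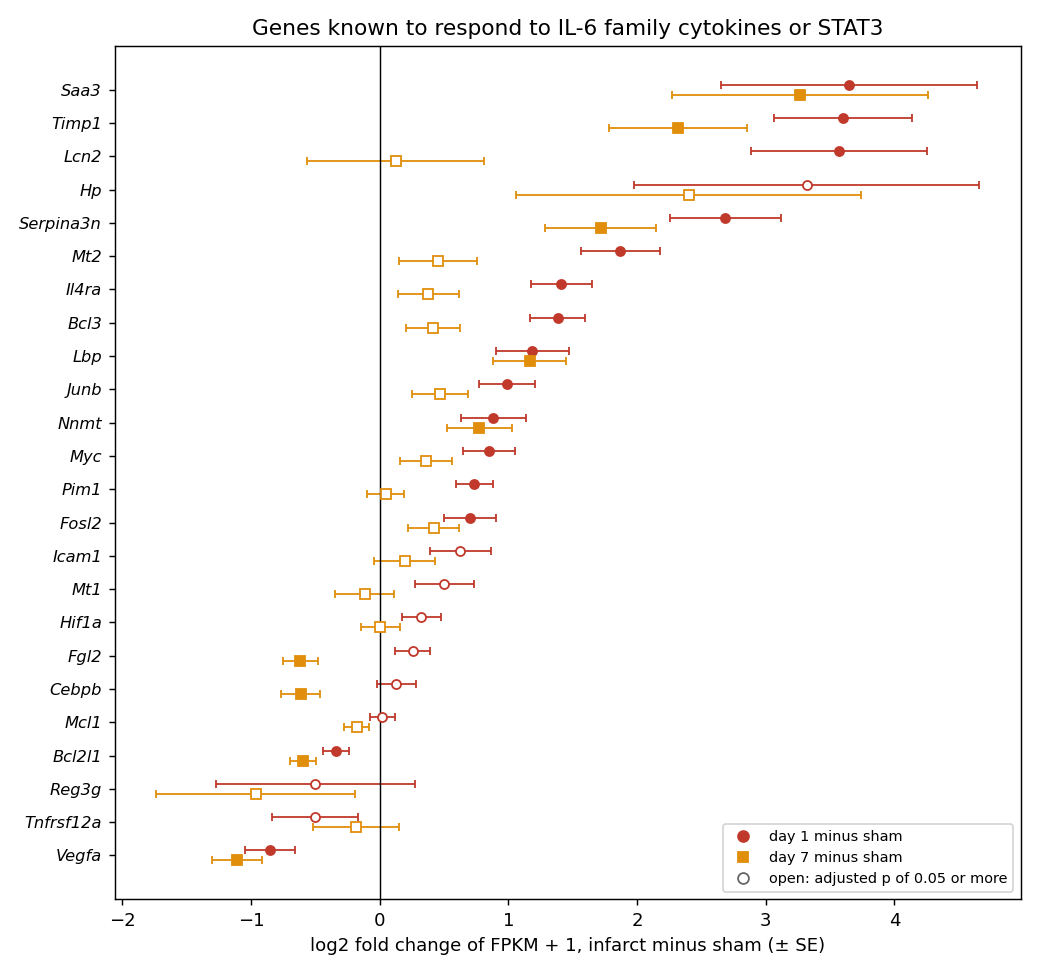
Log2 fold changes of FPKM + 1 with their SE for the tested genes known to respond to STAT3 or IL-6 family cytokines, with day 1 minus sham and day 7 minus sham as separate symbols. Saa3, Timp1, Lcn2, Hp and Serpina3n lie furthest right at day 1, with Hp at an adjusted p of 0.0959 and not called, and Lcn2 is near 0 at day 7, while Vegfa and Bcl2l1 lie left of 0 at both times.

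Between the infarct groups, Ptpn2 and Grb2 were the other signalling genes called, both lower at day 7. Grb2 averaged 44.1 FPKM at day 7, a log2 fold change of -0.76 from day 1 (limma adjusted p = 0.00434). That call was lost with TPM, at an adjusted p of 0.0662, and without the airway-marked libraries, at 0.058. Ptpn2, a phosphatase of JAK and STAT proteins, averaged 9.71 FPKM at day 7 and 14.2 FPKM at day 1 (log2 fold change -0.49, adjusted p = 0.0363), lost in 8 of 9 omissions, all but that of day 1 replicate 1, with adjusted p-values up to 0.113. The metallothionein gene Mt2 averaged 196 FPKM at day 7 and 516 FPKM at day 1 (adjusted p = 0.0384), Il4ra, an interleukin-4 receptor chain, 10.2 FPKM at day 7 and 22.7 FPKM at day 1 (0.0452), and Bcl3, a partner of NF-kB, 5.20 FPKM at day 7 and 11.3 FPKM at day 1 (0.0397). Calls of these 3 were lost in 7, 8 and 7 of 9 omissions of a library, with adjusted p-values up to 0.11, 0.132 and 0.114. Mt2 kept its call without sham replicate 3 or day 7 replicate 2, Il4ra without day 1 replicate 1, and Bcl3 without sham replicate 2 or day 1 replicate 1.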

How the data were processed

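Per the labels' protocols, RNA came from a TRIzol extraction and was turned into libraries by the VAHTS Universal V6 kit. The submitters' processing notes name HISAT2 2.1.0, HTSeq 0.11.2, FastQC 0.11.9 and the build GRCm39. The deposited values are FPKM for 55361 transcripts, made by the authors, and 11.8% of positive values are under 1e-06, so reads had been counted in fractions by a tool not given in the sources used here. Read depth is unknown. FPKM summed to 521643 to 729940 per infarct library and 768943 to 792632 per sham library.

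FPKM were summed per gene. Genes with a mean of 1 FPKM or more (13514) entered limma 3.58.1 (R 4.3.3; tables by Python 3.11.15 and pandas 2.3.3) on the log2(FPKM + 1) scale, with a variance trend, all 9 libraries in 1 fit and Benjamini-Hochberg adjustment over all genes tested. Fold changes on this scale understate changes of low genes. Tests were two-sided. With 3 libraries a side, exact permutation p-values stop at 0.1, so none was used. The procedure was also run on simulated data with noise drawn independently for each gene, and the outcome is not reported here. Such noise does not carry tissue differences that many genes share. The members and gene lists were chosen with earlier results of these data known. From each list, up to 4 called genes per comparison with the largest fold change were named, and some of these are not reported here. The 24 alternatives covered the pseudocount, filter, scaling, model and each library left out. Leaving out the airway-marked libraries, and no filter with a pseudocount of 0.1, were added after seeing the data.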

Additional observations from a re-analysis of the deposited data

Results flagged for a closer look

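Socs3 differed between the infarct groups: its log2 fold change of day 7 against day 1 was -1.48, which tests the difference between the responses at the 2 times directly (limma, Benjamini-Hochberg adjusted p = 0.0249). Over 24 alternatives the adjusted p ranged from 0.0174 to 0.122, and the call was lost in 7: with TPM, the 2 groups alone or the replicate block, without day 1 replicate 2, day 7 replicate 2 or day 7 replicate 3, and without the airway-marked libraries. Both times share the same sham libraries. Socs3 averaged 7.56 ± 1.84 FPKM at day 7 and 23.2 ± 7.04 FPKM at day 1 (SD, n = 3 libraries each), and neutrophil marker sums were 36.3 to 80.6 FPKM at day 7 and 127 to 334 FPKM at day 1. The part of neutrophils in the difference was not tested.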

How the results depend on the processing

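Read depth is unknown, so no counting interval can be given, and 4 cytokine genes average under 1 FPKM over the 9 libraries. The cause of each shift below was not tested. At day 1 the members called higher were 4, and 2 to 4 with single libraries left out, 0 without the airway-marked libraries. The alternatives tested 5 to 10 members, and those called higher at day 1 were 3 at a minimum of 5 FPKM or with the replicate block. They were 5 with TPM, median-ratio scaling or no filter, where Clcf1 joined, and 5 with quantile scaling or array weights, where Il6st joined. They were 6 without mitochondrial genes, or without filter at a pseudocount of 0.1. At day 7 they were 0, with 0 to 1 in single omissions, 1 with a pseudocount of 0.1 with or without the filter, with the 2 groups alone or with array weights, and 3 with TPM or without mitochondrial genes. Members lower at day 7 than at day 1 were 1, and 0 to 1 in single omissions, 2 with array weights, 0 with TPM, the 2 groups alone or without the airway-marked libraries. All genes called at day 1 were 1817 higher and 1993 lower, with single-library ranges of 968 to 1957 and 790 to 2299. They were 1199 higher at a minimum of 5 FPKM, 2509 higher and 598 lower with TPM, 3766 and 899 without mitochondrial genes, 3027 lower with array weights, and 256 and 146 without the airway-marked libraries. At day 7 they were 2127 higher and 2341 lower, with ranges of 1124 to 2276 and 1042 to 2618. They were 1310 higher at 5 FPKM, 3949 and 532 with TPM, 4065 and 1054 without mitochondrial genes, 1078 and 1047 without the airway-marked libraries. Between day 7 and day 1 they were 366 higher and 289 lower, with ranges of 75 to 275 and 62 to 244. They were 242 higher at 5 FPKM, 220 higher without filter at a pseudocount of 0.1, 113 and 73 with TPM, 78 and 88 with the 2 groups alone, 584 and 466 with array weights, 34 and 26 without the airway-marked libraries. Signs turned for Il6 at day 7 with its most expressed transcript (-0.125), for Il6ra at day 7 with quantile scaling (-0.008) or in single omissions (-0.083 to 0.203, lowest without sham replicate 2), and for Il6st between day 7 and day 1 with TPM (0.032). They also turned for Osmr at day 7 with array weights (-0.039), with sham replicate 1 omitted (-0.038), in single omissions overall (-0.105 to 0.121, lowest without day 7 replicate 1) and without the airway-marked libraries (-0.038), and for Stat3 at day 1 in single omissions (-0.07 to 0.158, lowest without day 1 replicate 3) and at day 7 with TPM (0.118). None of these values was called. Il6st gained a call at day 1 without mitochondrial genes, with quantile scaling or with array weights.

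Of 9 same-numbered pairs of libraries, 4 correlated over 0.1 in their deviations from group means (range -0.37 to 0.269), and 1 library correlated best with its own number. With 3 libraries a group such deviations balance out within the group, so these values cannot show whether equal replicate numbers mark pairs. With the replicate block, Bcl2l1 at day 1 was at an adjusted p of 0.053, 3 members were higher at day 1 and 0 lower at day 7 than day 1, and genes called between day 7 and day 1 were 144 higher and 93 lower.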

Other observations

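The tested genes whose log2 levels followed a member most closely over the 9 libraries are given with Pearson's r, as a description of libraries that share groups, depth and tissue makeup. For Socs3 they were Ostc (0.986), Pdia6 (0.985) and Pitpna (0.983). For Osmr they were Ywhah (0.983), Alg9 (0.982) and Lipo1 (0.972). For Stat3 they were Utp18 (0.981), Mbd2 (0.975) and Rab6a (0.973), and for Il6st they were Gm7265 (0.948), Maged1 (0.946) and Gm26669 (0.934). Among the members, Socs3 followed Osmr at 0.905, Clcf1 at 0.878, Osm at 0.877, Il6 at 0.867 and Il6ra at 0.843, but Il6st at 0.488 and Stat3 at 0.444.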
